A study of Mus musculus with 2 samples.

Results

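The mitochondria-rich barcodes were the droplet barcodes of the cisplatin library that held at least 500 unique molecular identifiers (UMIs, each counted as 1 RNA molecule) with more than 20% of them from the mitochondrial genome. There were 1712 of them among the 3441 cisplatin barcodes of 500 UMIs or more, or 49.8% (exact 95% interval 48.1 to 51.4%), and among 4071 such barcodes in both libraries. The study profiled single kidney cells. The mice were male C57BL6/J animals, 10 to 12 weeks old, and had received saline or 20 mg/kg cisplatin, a platinum drug that injures the kidney tubule, 72 h before. From each treatment, 10 kidneys of 5 mice were pooled, taken through magnetic beads for CD31 and then for podoplanin, and made into 1 library, so no value below has a replicate and no test between treatments or mice was possible. Intervals are exact 95% intervals that cover counting error only. The 1712 barcodes were compared with the 1729 cisplatin barcodes of 500 UMIs or more at or below 20%, called low-mitochondrial here, and with the sum of the 376309 cisplatin barcodes of 1 to 100 UMIs, called near-empty, because such droplets need not hold a cell. The barcodes were selected on their total UMIs and their mitochondrial share, so both are given only as a description. All other comparisons used non-mitochondrial UMIs.

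The mitochondrial genome encodes a small set of respiratory chain and ATP synthase subunits, and the nucleus encodes all the others. Cells of the proximal tubule and the thick ascending limb, which pump salt and solutes, are known for dense mitochondria. In single-cell work, a droplet whose RNA is mostly mitochondrial is often set aside, since a damaged cell can lose cytosolic RNA while its mitochondria stay.

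The label of both samples is lymphatic endothelial cells. The lymphatic markers Prox1, Lyve1, Mmrn1, Reln, Ccl21a, Flt4 and Pdpn together had 31 UMIs in the mitochondria-rich barcodes, and 150 in the low-mitochondrial ones. At least 2 of these UMIs were found in 2 of the 1712 mitochondria-rich barcodes (0.117%, 0.0142 to 0.421%) and in 22 of the 1729 low-mitochondrial ones (1.27%, 0.799 to 1.92%), which were deeper in non-mitochondrial UMIs. The barcodes are called by their rule and not by a cell type.

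Among the mitochondrial genes, the pairs mt-Atp8 with mt-Atp6 and mt-Nd4l with mt-Nd4 are each known to lie on 1 shared RNA, and their reading frames overlap. Sequences of the first gene of each pair are shown because it took a smaller share of the pair in all 3 cisplatin pools than in both saline pools. How reads that touch an overlap were counted was not examined. Both are on the plus strand of the mitochondrial chromosome in GRCm38 (GENCODE vM21), mt-Atp8 at chrM:7766-7969 and mt-Nd4l at chrM:9877-10173. The capitals mark the bases that also belong to the next gene, 43 bases of mt-Atp6 from position 7927 and 7 bases of mt-Nd4 from position 10167.
mt-Atp8: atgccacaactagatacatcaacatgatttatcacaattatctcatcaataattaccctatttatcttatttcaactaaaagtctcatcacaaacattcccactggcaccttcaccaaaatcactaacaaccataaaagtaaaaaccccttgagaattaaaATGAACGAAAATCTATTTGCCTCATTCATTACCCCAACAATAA
mt-Nd4l: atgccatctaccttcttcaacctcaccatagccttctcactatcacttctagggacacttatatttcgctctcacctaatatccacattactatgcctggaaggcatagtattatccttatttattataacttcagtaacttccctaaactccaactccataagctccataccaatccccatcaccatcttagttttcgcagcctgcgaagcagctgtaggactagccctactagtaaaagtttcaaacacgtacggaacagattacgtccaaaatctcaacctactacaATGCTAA

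The mitochondria-rich barcodes were shallow. They held a median of 630 UMIs (quartiles 550 and 805), of which a median of 346 were not mitochondrial (209 and 469), over a median of 255 genes. The low-mitochondrial barcodes held a median of 746 UMIs, 665 of them not mitochondrial, over 452 genes. The 2 groups therefore lay close in total depth and far apart in the depth left for other genes. The median mitochondrial share was 45.6% (quartiles 29.6 and 68.2%), and the highest was 96.6%. The barcodes together held 8.05% of the 19994105 UMIs of the cisplatin library. No barcode sequence reached 500 UMIs in both libraries, and 3 of the 1712 had more than 100 UMIs in the saline library.

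High mitochondrial shares were not limited to this depth. Of cisplatin barcodes with 1 to 9 UMIs, 56.6% lay above 20%. With so few UMIs a single mitochondrial UMI can pass the limit, so in both libraries this bin is not comparable with deeper ones. The share was 84.8% at 200 to 299 UMIs, 79.6% at 300 to 499, 54.5% at 500 to 999, 36.2% at 1000 to 1999 and 27.2% from 2000 UMIs on, so it was highest at 200 to 299 UMIs and lower in each deeper bin. In the saline library the share was 5.49% at 1 to 9 UMIs, 2.65% at 300 to 499 and 0% from 1000 on. Only 3 of the 630 saline barcodes of 500 UMIs or more passed the rule (0.476%, 0.0983 to 1.39%). Summed over barcodes, mitochondrial genes made up 50.9% of the UMIs of the mitochondria-rich barcodes, 8.57% of the low-mitochondrial ones and 30.6% of the near-empty ones, against 2.42% and 3.84% in the low-mitochondrial and near-empty barcodes of saline. Treatment, library and mice cannot be told apart in these differences.

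**Figure D1:**
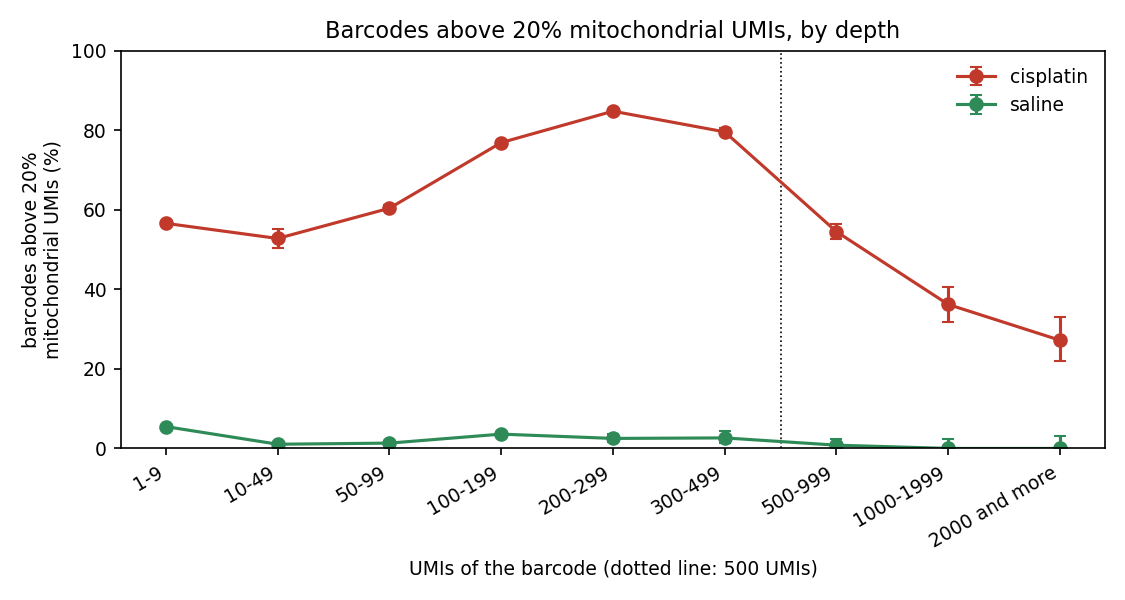
Share of barcodes with more than 20% mitochondrial UMIs (vertical axis, %) in bins of UMIs per barcode (horizontal axis), for the cisplatin and the saline library, with exact 95% intervals; the dotted line marks 500 UMIs. The cisplatin points lie between 27.2 and 84.8% and peak at 200 to 299 UMIs, and no saline point lies above 5.49%.

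The limit of 20% fell within a continuous range. The nearest barcodes stood at 20.00% and 20.03%. The 131 barcodes between 18 and 20% had a median of 674 UMIs and a Malat1 level of 63185 CPM (counts per 1000000 non-mitochondrial UMIs), and the 111 between 20 and 22% had 659 UMIs and 68867 CPM.

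Within the mitochondrial UMIs, the order of the genes was nearly that of the other cisplatin barcodes. Subunits of cytochrome c oxidase (complex IV) made up 43% of them, those of NADH dehydrogenase (complex I) 25.5%, those of ATP synthase 19.6% and cytochrome b of complex III 12%. The low-mitochondrial barcodes had 44.2% for complex IV and 24.2% for complex I. The most abundant gene was mt-Atp6 with 18.8% of mitochondrial UMIs, against 19.5% in the low-mitochondrial, 21.3% in the near-empty and 16.1% in the saline low-mitochondrial barcodes. Over single mitochondria-rich barcodes it ranged from 14.4% (5th percentile) to 24.2% (95th), with a median of 19.1%. The second was mt-Co3 with 17.5%, and the others in falling order were mt-Co2 (14.9%), mt-Cytb (12%) and mt-Co1 (10.7%), down to mt-Nd6 with 0.0919%.

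Differences between treatments were wider than those between the cisplatin pools for the overlapping pairs. Of the UMIs given to mt-Atp8 or mt-Atp6, mt-Atp8 had 3.95% in the mitochondria-rich barcodes (3.86 to 4.05%), 3.7% in the low-mitochondrial and 2.85% in the near-empty ones. The saline values were 10.9% in low-mitochondrial (10 to 11.8%) and 20% in near-empty barcodes (19.5 to 20.6%). Of the UMIs of mt-Nd4l and mt-Nd4, mt-Nd4l had 19.4% in the mitochondria-rich barcodes (19.1 to 19.8%), 17.9% in the low-mitochondrial and 14.5% in the near-empty ones, against 30.3 and 34.5% in the same 2 pools of saline. In both pairs all cisplatin pools lay below both saline pools. Such a split was not particular to the pairs. As shares of mitochondrial UMIs, mt-Cytb, mt-Nd2 and mt-Nd3 were higher in all cisplatin pools than in both saline pools. mt-Nd5 and mt-Nd6 were lower in all cisplatin pools. For mt-Cytb the shares were 12, 11.3 and 12.4% in the mitochondria-rich, low-mitochondrial and near-empty barcodes. The saline low-mitochondrial and near-empty barcodes had 9.66 and 9.14%. No such split was seen for mt-Co1, mt-Co2, mt-Co3 and mt-Nd1. mt-Co1, a catalytic subunit of complex IV, took 10.7% in the mitochondria-rich, 11.9% in the low-mitochondrial and 8.28% in the near-empty barcodes. Its saline shares were 17% and 10.4% in the low-mitochondrial and near-empty barcodes.

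**Figure D2:**
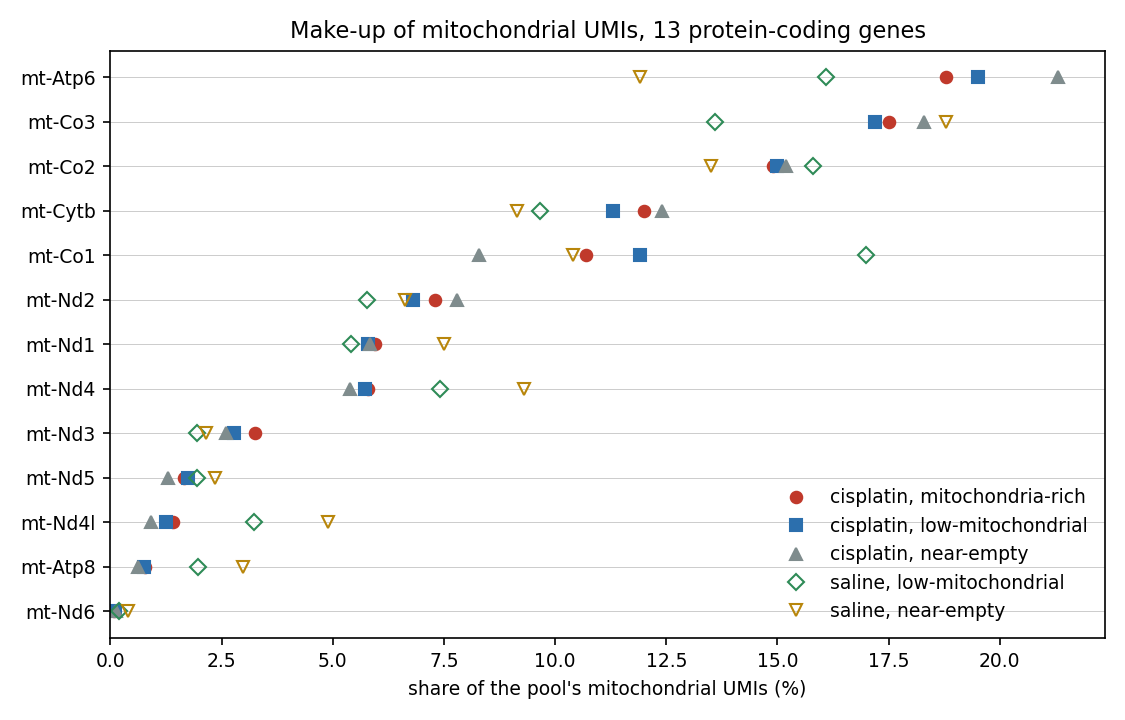
Share of each pool's mitochondrial UMIs (horizontal axis, %) given to each of the 13 protein-coding genes, for 3 cisplatin pools (filled) and 2 saline pools (open). The cisplatin points lie close together for most genes, and mt-Atp8 and mt-Nd4l lie further left in the cisplatin pools than in the saline ones.

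On summed non-mitochondrial UMIs the mitochondria-rich barcodes lay nearer to the near-empty barcodes than to the low-mitochondrial ones. Over 8282 genes, the Pearson correlation of log2 levels was 0.916 with the near-empty and 0.855 with the low-mitochondrial pool, and 15% and 18.3% of UMIs would have to move to another gene to make the profiles equal. The low-mitochondrial and near-empty pools, with 0.811 and 22.2%, lay further from each other than either did from the mitochondria-rich pool. Against saline, the correlation was 0.844 with near-empty and 0.599 with low-mitochondrial barcodes. These correlations run across genes, which are not replicates, and the cisplatin pools share 1 library. They use all UMIs, in which deep barcodes weigh heavily, and are not given with barcodes reduced to the same depth. Whether the order of the pools depends on depth was not tested.

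A gene was called where its ratio of CPM reached 1.5 either way with an interval that left out 1, among genes with at least 20 UMIs over both pools. Against the low-mitochondrial barcodes 1235 of 11821 genes were higher (10.4%) and 1449 lower (12.3%). Against the near-empty barcodes 513 of 11000 genes were higher (4.66%) and 1345 lower (12.2%). Higher genes made up 27.6% of the calls against the near-empty barcodes, but 45.6% with Malat1 and the ribosomal RNA gene models left out of the total and 51.3% with ratios centred on the median gene. Against the low-mitochondrial barcodes they made up 46%, with 55.7% and 38.5% under the same 2 changes. The median log2 ratio of all genes was 0.06 against low-mitochondrial and -0.14 against near-empty barcodes.

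Deep barcodes weighed heavily in these sums. The 10 deepest mitochondria-rich barcodes held 123625 non-mitochondrial UMIs, 15.7% of the pool, and 412 low-mitochondrial barcodes held 1000 non-mitochondrial UMIs or more, against 63 mitochondria-rich ones. Values are therefore also given at equal depth, with each barcode reduced at random to 150 non-mitochondrial UMIs, which kept 1513 of the 1712 mitochondria-rich and all 1729 low-mitochondrial barcodes. Fewer UMIs and genes enter at equal depth, so fewer calls can be made, and ratios are given beside the counts. At equal depth 192 of 5107 genes were higher (3.76%) and 177 lower (3.47%) against the low-mitochondrial barcodes, where higher genes made up 52% of the calls. Against the near-empty barcodes, only the mitochondria-rich side was thinned, because near-empty barcodes hold at most 100 UMIs and their sum was used as it stood. These values, called thinned below, limit the weight of deep mitochondria-rich barcodes and do not make the depths equal. In that form 289 of 10285 genes were higher than in the near-empty barcodes (2.81%) and 527 lower (5.12%).

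Proximal tubule markers were the leading cell type signal. They made up 1.12% of non-mitochondrial UMIs in the mitochondria-rich barcodes, 0.67% in the low-mitochondrial and 1.7% in the near-empty ones. Of 18 markers 12 were higher and none lower than in the low-mitochondrial barcodes, beside 10.4% and 12.3% of all genes, with a median log2 ratio of 0.71. None was higher and 8 were lower than in the near-empty ones, beside 4.66% and 12.2% of all genes. Thinned, 4 of 18 were lower than in the near-empty ones, beside 5.12%. Slc34a1, the phosphate carrier of the proximal tubule brush border, stood at 2319, 1374 and 3815 CPM in the 3 pools, and Kap, a protein abundant in the proximal tubule of male mice, at 3342, 1754 and 5437 CPM. At equal depth the difference from the low-mitochondrial barcodes shrank: 1 of 17 markers was higher, beside 3.76% of all genes. The summed ratio went from 1.68 (1.63 to 1.72) to 1.06 (1.01 to 1.11). Against the near-empty barcodes the summed ratio was 0.662 with all UMIs and 0.774 thinned. At 150 UMIs, 56.1% of mitochondria-rich barcodes held 2 or more proximal tubule UMIs (53.6 to 58.6%), against 49.8% of low-mitochondrial and 20.3% of saline low-mitochondrial barcodes; 150 UMIs drawn at the near-empty level would give 72.5%.

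Thick ascending limb markers were higher than in either pool with all UMIs. All 6 were called higher than in the low-mitochondrial barcodes, beside 10.4% of all genes, with a summed ratio of 3.32 (3.14 to 3.51). Against the near-empty ones 5 of 6 were higher, beside 4.66%, with 1.75 (1.66 to 1.85). Umod, the urinary glycoprotein made by this segment, had 1622 CPM in the mitochondria-rich, 438 in the low-mitochondrial and 776 in the near-empty barcodes. Slc12a1, its salt cotransporter, had 973, 311 and 744 CPM. The 5 barcodes with most of these UMIs held 43.6% of them, and a single barcode of 36851 UMIs with a mitochondrial share of 66.5% held 201 of the 1281 Umod UMIs. At equal depth the summed ratio was 1.91 against low-mitochondrial barcodes (1.64 to 2.23), with 2 of 5 markers higher, beside 3.76% of all genes. Thinned against near-empty barcodes it was 1.08 (0.975 to 1.19), with none of 5 called. Umod was 2.93-fold (2.24 to 3.87) and Slc12a1 1.59-fold (1.26 to 2.01) higher than in the low-mitochondrial barcodes at equal depth. At 150 UMIs, 4.49% of mitochondria-rich barcodes held 2 thick ascending limb UMIs (3.51 to 5.66%), against 2.49% of low-mitochondrial ones (1.81 to 3.34%).

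For markers of other tubule segments, single barcodes held part of the UMIs. One barcode held 60 of the 158 intercalated cell UMIs, another held 110 of the 561 UMIs of distal convoluted tubule markers, and for collecting duct principal markers the highest mitochondria-rich barcode held 21 of 288. Fxyd4, a regulator of the sodium pump in the collecting duct, had 41.8 CPM in the mitochondria-rich and 187 in the low-mitochondrial barcodes, but 1 low-mitochondrial barcode held 301 of that pool's 490 UMIs, and the ratio went from 0.224 to 1.03 without the 10 deepest barcodes of each pool. Podxl, a podocyte and endothelial surface protein, had 247 CPM against 468 in the low-mitochondrial barcodes, and its ratio was 1.01 at equal depth.

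Blood endothelial markers were low. All 10 were lower than in the low-mitochondrial barcodes with all UMIs, beside 12.3% of all genes, with a summed ratio of 0.348 (0.327 to 0.37). Against the near-empty ones 4 of 10 were lower, beside 12.2%, and 1 of 10 thinned, beside 5.12%. Pecam1, which encodes the CD31 used for sorting, had 162 CPM in the mitochondria-rich, 353 in the low-mitochondrial and 172 in the near-empty barcodes. Kdr, the main VEGF receptor of capillaries, had 83.6, 506 and 145 CPM. At equal depth none of 10 was called either way and the summed ratio was 0.94 (0.824 to 1.07), so most of the deficit was not present at equal depth. Plat, the tissue plasminogen activator, had 82.3 against 1028 CPM with all UMIs, a ratio of 0.0801 (0.0616 to 0.102). Its ratio was nearer to 1 at equal depth, 0.549 (0.322 to 0.909), and was 1.37 (0.658 to 2.81) among barcodes chosen by proximal tubule markers, described last.

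Macrophage markers were low with all UMIs and at equal depth. All 7 were lower than in the low-mitochondrial barcodes, beside 12.3% of all genes, with a summed ratio of 0.166 (0.141 to 0.195). Against the near-empty ones 4 of 6 were lower, beside 12.2% of all genes, with a summed ratio of 0.523 (0.436 to 0.625). Thinned, 1 of 5 was lower than in the near-empty barcodes, beside 5.12%, with a summed ratio of 0.669 (0.501 to 0.877). C1qa and C1qb, subunits of complement C1q made by resident macrophages, had 59.5 and 50.7 CPM, against 403 and 375 in the low-mitochondrial barcodes. At equal depth 4 of 5 markers were lower than in the low-mitochondrial barcodes, beside 3.47% of all genes, with a summed ratio of 0.327 (0.24 to 0.439). At 150 UMIs, 0.397% of mitochondria-rich against 2.37% of low-mitochondrial barcodes held 2 macrophage UMIs. At that depth no mitochondria-rich barcode held 2 UMIs of neutrophil, red cell or T, NK and B cell markers, and 1, 1 and 0 of the 1729 low-mitochondrial barcodes did, so a difference was not detectable.

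Pericyte and smooth muscle markers changed side with depth. With all UMIs 2 of 7 were higher and 3 lower than in the low-mitochondrial barcodes, beside 10.4% and 12.3% of all genes, with a summed ratio of 0.625. At equal depth 2 of 5 were higher and none lower, beside 3.76% of all genes higher, with a ratio of 2.08 (1.58 to 2.75). Thinned, 3 of 7 were higher than in the near-empty barcodes, beside 2.81%, with 1.68 (1.4 to 2.01). Myh11, the smooth muscle myosin heavy chain, had 149 CPM in the mitochondria-rich, 105 in the low-mitochondrial and 50.5 in the near-empty barcodes. Its 118 UMIs came from 49 barcodes with at most 8 in each, and its ratio was 3.95 (1.98 to 8.56) to the low-mitochondrial barcodes at equal depth and 3.32 (2.18 to 4.96) to the near-empty ones, thinned. Rgs5, a regulator of G-protein signalling in pericytes, went from a ratio of 0.324 with all UMIs to 1.71 (0.91 to 3.3) at equal depth. Fibroblast markers were higher than in the low-mitochondrial barcodes both ways, 4 of 4 with all UMIs (2.21, 1.93 to 2.54) and 2 of 4 at equal depth (1.85, 1.35 to 2.54), beside 10.4% and 3.76% of all genes. Col1a2, a chain of type I collagen, was at 174 against 68.7 CPM, and at 177 CPM in the near-empty barcodes.

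**Figure D3:**
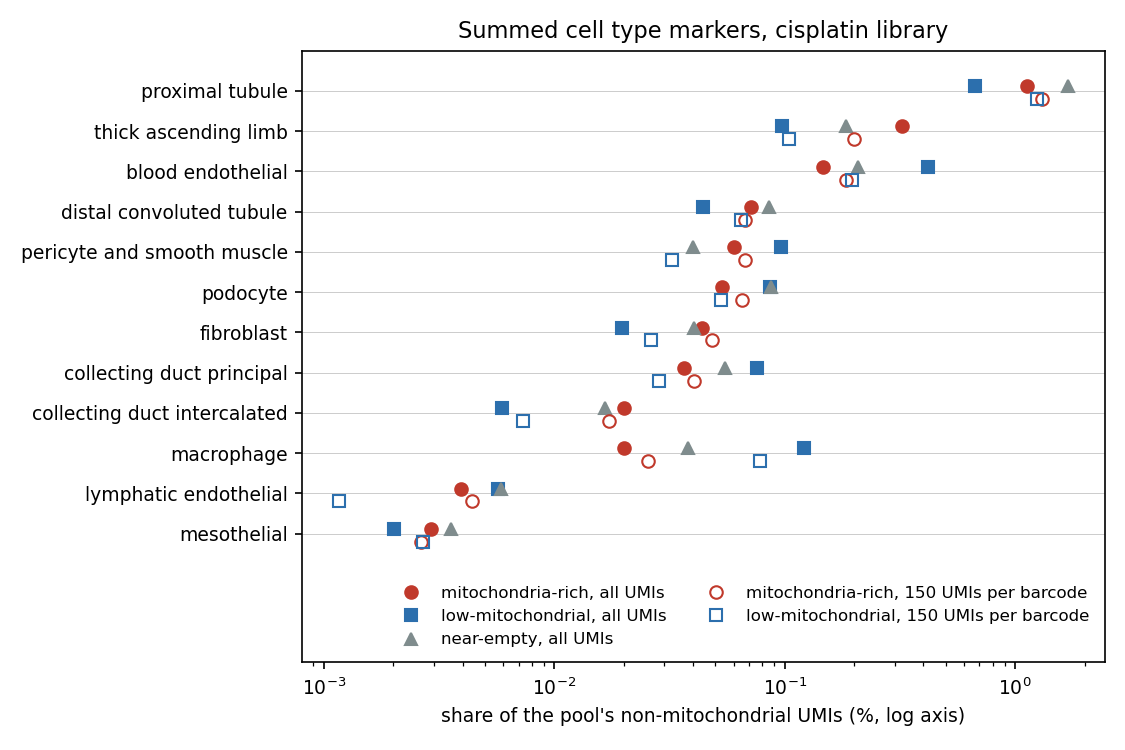
Share of each cisplatin pool's non-mitochondrial UMIs (horizontal log axis, %) given to summed cell type markers, for lists with at least 20 UMIs in the mitochondria-rich barcodes; filled points use all UMIs and open points 150 UMIs per barcode. For blood endothelial markers the filled points lie far apart and the open points close together, and for macrophage markers the mitochondria-rich points lie to the left in both forms.

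The nuclear RNA Malat1 set the mitochondria-rich barcodes apart from both pools, in opposite directions. Malat1 is a long non-coding RNA that stays in the nucleus. It had 53507 CPM in the mitochondria-rich, 61381 in the low-mitochondrial and 31975 in the near-empty barcodes, and 58861 and 108782 CPM in the low-mitochondrial and near-empty barcodes of saline. The ratio was 0.872 against low-mitochondrial (0.862 to 0.881) and 1.67 against near-empty barcodes (1.65 to 1.7). It was 0.631 (0.617 to 0.644) to the low-mitochondrial barcodes at equal depth and 1.77 (1.73 to 1.8) to the near-empty ones, thinned.

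Malat1 also varied with the mitochondrial share from barcode to barcode. Its median share of a barcode's non-mitochondrial UMIs was 4.76% in the mitochondria-rich (quartiles 2.81 and 7.06%) and 8.3% in the low-mitochondrial barcodes (5.02 and 12.3%). Over rising bins of the mitochondrial share the medians were 8.32, 9.19, 7.64, 6.21, 4.64, 3.77 and 2.71%, so that within the mitochondria-rich barcodes each higher bin had less. Depth moved with the mitochondrial share, and the difference was also present among barcodes of like depth. With 300 to 499 non-mitochondrial UMIs, the medians were 5.49% in 645 mitochondria-rich and 7.58% in 317 low-mitochondrial barcodes, and with 500 to 999 they were 6.7% in 299 and 9.06% in 1000. The quartiles overlapped at both depths.

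Other nuclear RNAs depended on the depth used. Neat1, the RNA scaffold of paraspeckles, had 5349 CPM in the mitochondria-rich, 3553 in the low-mitochondrial and 9057 in the near-empty barcodes. Its ratio to the low-mitochondrial barcodes was 1.51 with all UMIs and 0.946 at equal depth (0.881 to 1.01), and to the near-empty ones 0.591 and, thinned, 0.7. Kcnq1ot1, an imprinted antisense RNA, was 1.67-fold higher than in the near-empty barcodes (1.43 to 1.96) and 1.24-fold higher than in the low-mitochondrial ones (1.08 to 1.41). Over the list of nuclear long non-coding RNAs, 1 of 6 was higher and none lower than in the low-mitochondrial barcodes, beside 10.4% and 12.3% of all genes. The summed ratio of 0.909, which Malat1 leads, and the median log2 ratio of 0.24 differed in sign. At equal depth none of 5 was higher and 1, Malat1, was lower, with a median of -0.21 and a summed ratio of 0.655. Against the near-empty barcodes 3 of 6 were higher and 1 lower with all UMIs, beside 4.66% and 12.2% of all genes. Thinned, 3 were higher and none lower, beside 2.81% and 5.12%, with a median of 0.69.

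Cytosolic ribosomal protein genes were lower than in the low-mitochondrial barcodes by the pooled sum and higher by the median barcode. They made up 5% of summed non-mitochondrial UMIs, against 9.04% in the low-mitochondrial and 4.14% in the near-empty barcodes. Of 81 genes 66 were lower than in the low-mitochondrial barcodes and none higher, beside 12.3% of all genes lower, with a median log2 ratio of -0.93. Against the near-empty ones 5 were higher and none lower, beside 4.66% of all genes higher, and none was higher and 1 lower thinned. Rps29, a protein of the small subunit, had 1405, 3067 and 894 CPM. At equal depth 20 of 81 were lower than in the low-mitochondrial barcodes, beside 3.47% of all genes, with a summed ratio of 0.787 (0.766 to 0.809). The median barcode held 3.38% among the mitochondria-rich and 2.61% among the low-mitochondrial barcodes, and the medians over rising bins of the mitochondrial share went from 2.5% to 4%. Barcodes of 300 to 499 non-mitochondrial UMIs had medians of 3.09 and 2.45%, and the pooled share of the low-mitochondrial barcodes lay far above that of their median barcode. Gm42418, a gene model that collects ribosomal RNA reads, had 140847 CPM, against 92238 in the low-mitochondrial and 101356 in the near-empty barcodes, and was 1.23-fold higher than in the low-mitochondrial barcodes at equal depth and 1.48-fold higher than in the near-empty ones, thinned.

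**Figure D4:**
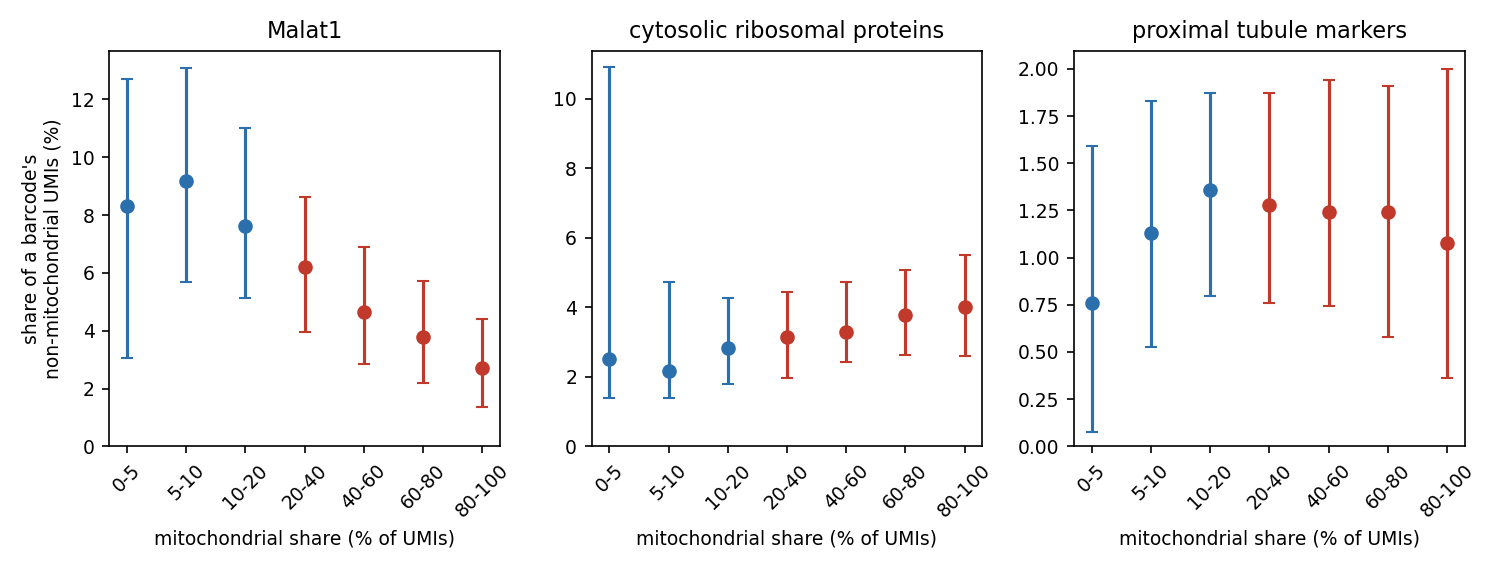
Median share of a cisplatin barcode's non-mitochondrial UMIs (vertical axes, %; bars are quartiles) given to Malat1, cytosolic ribosomal proteins and proximal tubule markers, over 7 bins of the mitochondrial share (horizontal axis); blue bins are at most 20% and red bins above. Malat1 goes down from 9.19 to 2.71%, ribosomal proteins go from 2.18 up to 4%, and proximal tubule markers stay between 1.08 and 1.36% from 10% on.

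Few nuclear genes of the respiratory chain passed the limit against the low-mitochondrial barcodes. Of 36 complex I genes 1 was higher and none lower, with a summed ratio of 1.1, and none of 11 complex IV genes was called, with 1.15, beside 10.4% of all genes called higher. None of 16 nuclear ATP synthase genes and none of 14 genes of complexes II and III was called. At equal depth 2 of 36 complex I, 1 of 11 complex IV and 2 of 16 ATP synthase genes were higher and none lower, beside 3.76% of all genes, with summed ratios of 1.14, 1.13 and 1.16. Among barcodes chosen by proximal tubule markers, described last, 4 of 36, 2 of 11 and 3 of 16 were higher and none lower, beside 4.53% of all genes, with median log2 ratios of 0.30, 0.36 and 0.44. Against the near-empty barcodes 9 of 36 complex I and 6 of 11 complex IV genes were higher, beside 4.66% of all genes. The summed ratios were 1.31 (1.27 to 1.35) and 1.55 (1.49 to 1.61). Thinned, 1 complex I gene was higher and 1 lower, beside 2.81% and 5.12% of all genes, with a summed ratio of 0.912 (0.86 to 0.966). No complex IV gene was called thinned. With all UMIs 3 of 14 genes of complexes II and III and 2 of 16 ATP synthase genes were higher than in the near-empty barcodes. Thinned, 2 were lower and none higher in each of these lists. Their thinned summed ratios were 0.836 (0.768 to 0.909) and 0.858 (0.806 to 0.912). Cox8a, a small complex IV subunit, had 992 CPM in the mitochondria-rich, 888 in the low-mitochondrial and 569 in the near-empty barcodes. A single barcode held 137 of its 783 UMIs, and thinned, its ratio to the near-empty barcodes was 0.984 and that of complex IV was 0.923 (0.861 to 0.99). Atp5j2, the f subunit of ATP synthase, was 1.73-fold higher than in the low-mitochondrial barcodes at equal depth (1.24 to 2.43), from 1.12-fold with all UMIs.

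The other mitochondrial lists had few calls or calls near the shares of all genes, which were 10.4% higher and 12.3% lower. Of 78 mitochondrial ribosomal protein genes 7 were lower and none higher than in the low-mitochondrial barcodes, a share under that of all genes. Mrps18c was the farthest, at 27.9 against 66 CPM (0.422, 0.258 to 0.66). None of 13 genes of the tricarboxylic acid cycle was called. Of 19 genes of mitochondrial DNA upkeep 2 were higher and 1 lower, and of 18 genes of mitochondrial quality control 2 and 2. Of 20 genes of mitochondrial import and the outer membrane 1 was higher and 3 were lower.

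Tubule metabolism followed the proximal tubule markers. Of 19 fatty acid oxidation genes 7 were higher than in the low-mitochondrial barcodes, of 8 genes of gluconeogenesis and fructose use 6, and of 29 proximal tubule carriers and uptake receptors 19, with none lower in any of these lists, beside 10.4% of all genes higher. Against the near-empty barcodes 11 of the carriers were lower and 1 higher, beside 12.2% and 4.66% of all genes, and thinned, 4 of 29 were lower, beside 5.12%. At equal depth these counts against the low-mitochondrial barcodes were 1 of 17, 0 of 8 and 1 of 24, beside 3.76% of all genes, and 2 of the 24 carriers were lower. Pck1, the entry enzyme of gluconeogenesis, had 291, 179 and 389.7 CPM in the 3 pools, with a ratio of 1.63 to the low-mitochondrial barcodes that was 0.874 at equal depth. Miox, which breaks down inositol, went likewise from 1.83 to 1, and the sodium-glucose cotransporter Slc5a2 from 1.56 to 0.675 (0.399 to 1.12).

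Gpx3 and Kap, both abundant products of the proximal tubule, stood above the low-mitochondrial level at equal depth too. Gpx3, a secreted glutathione peroxidase, had 11989 CPM in the mitochondria-rich, 5305 in the low-mitochondrial and 17487 in the near-empty barcodes, and its ratio was 1.53 (1.45 to 1.61) to the low-mitochondrial barcodes at equal depth and 0.838 to the near-empty ones, thinned. Kap was 1.3-fold higher than in the low-mitochondrial barcodes (1.18 to 1.44) at equal depth and, thinned, at 0.729 of the near-empty level. Of 11 abundant tubule RNAs for secreted and membrane proteins, 7 were higher and 1 lower than in the low-mitochondrial barcodes with all UMIs, beside 10.4% and 12.3% of all genes. At equal depth 5 of 10 were higher, beside 3.76%, with a summed ratio of 1.5.

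**Figure D5:**
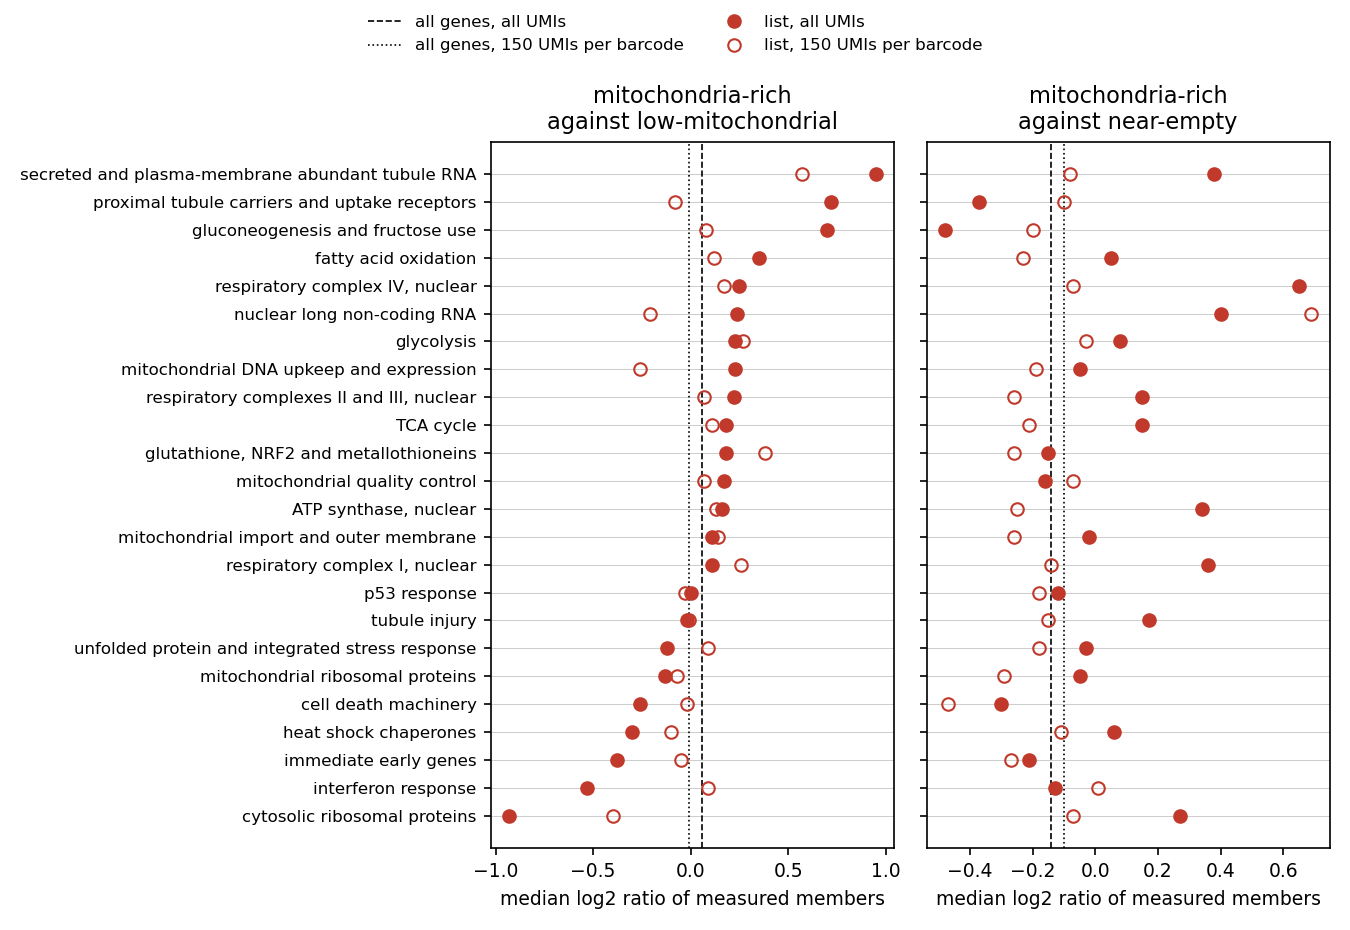
Median log2 ratio (horizontal axes) of the measured members of each gene list, mitochondria-rich against low-mitochondrial barcodes (left) and against near-empty barcodes (right); filled points use all UMIs, open points 150 UMIs per barcode (in the right panel only for the mitochondria-rich side), and the vertical lines are the medians of all genes. On the left, the ribosomal protein list lies lowest with all UMIs at -0.93, and the lists of tubule metabolism lie near 0 at equal depth.

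Genes of the p53 response, which platinum damage is known to induce, were called at shares near those of all genes with all UMIs. Of 28 genes 4 were higher and 2 lower than in the low-mitochondrial barcodes, with a median log2 ratio of 0.00, beside 10.4% and 12.3% of all genes. Of 27 genes none was higher and 4 were lower than in the near-empty ones, beside 4.66% and 12.2%. Thinned, none of 26 was higher and 4 were lower than in the near-empty ones, beside 2.81% and 5.12%. The summed ratio was 0.865 (0.818 to 0.914) with all UMIs and 0.806 (0.732 to 0.885) thinned. At equal depth 1 of 17 was higher and none lower than in the low-mitochondrial barcodes, beside 3.76% and 3.47%. Cdkn1a, the p53-driven inhibitor of cell cycle kinases, had 282 CPM in the mitochondria-rich, 456 in the low-mitochondrial and 344 in the near-empty barcodes, and its ratio to the low-mitochondrial barcodes was 0.62 (0.535 to 0.716) with all UMIs and 0.95 (0.661 to 1.36) at equal depth.

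Genes of the cell death machinery were mostly not called. Of 21 genes 1 was higher and 2 lower than in the low-mitochondrial barcodes, beside 10.4% and 12.3% of all genes, and none of 8 was called at equal depth. Against the near-empty ones 1 was higher and 7 were lower, beside 4.66% and 12.2% of all genes. Thinned, none of 19 was higher and 2 were lower, beside 2.81% and 5.12%. Bax, which opens the outer mitochondrial membrane in apoptosis, had 123, 219 and 192 CPM in the 3 pools, and its ratio was 0.714 (0.415 to 1.21) to the low-mitochondrial barcodes at equal depth and 0.574 (0.365 to 0.865) to the near-empty ones, thinned. The gene called higher was Pmaip1, a p53-induced activator of apoptosis also called Noxa, with 26.6 against 11.4 CPM, from 21 UMIs in 21 barcodes (2.32, 1.26 to 4.2). Casp8, an initiator caspase, was at 25.3 against 46.6 CPM. Fas, a death receptor, was lower than in the near-empty barcodes, at 53.2 against 114 CPM, and so was Bid, which links death receptors to mitochondria, at 10.1 against 34.3 CPM.

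Heat shock, immediate early and interferon lists were called lower more than higher with all UMIs, where 12.3% of all genes were lower. None of 11 heat shock chaperones was higher and 3 were lower than in the low-mitochondrial barcodes, among them Hspa1a at 51.9 against 99.6 CPM. Of 17 immediate early genes 2 were higher and 6 lower. At equal depth 0 of 8 chaperones and 1 of 13 immediate early genes were lower, beside 3.47% of all genes, and none was higher. Klf2, a flow-induced factor abundant in endothelium, had 63.3 CPM against 377 in the low-mitochondrial and 145 in the near-empty barcodes, and Fos had 27.9, 37.4 and 70 CPM. Of 22 interferon response genes 9 were lower and none higher with all UMIs, and 1 of 13 was lower at equal depth. Isg15, a ubiquitin-like protein induced by interferon, was at 22.8 against 91.2 CPM. Of 18 genes of the unfolded protein and integrated stress response none was higher and 1 was lower with all UMIs. At equal depth 1 of 10, Atf4, was higher (1.9, 1.03 to 3.63) and none lower, beside 3.76% and 3.47% of all genes.

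Antioxidant genes were called higher than in the low-mitochondrial barcodes but not than in the near-empty ones once thinned. Of 22 glutathione, NRF2 and metallothionein genes 7 were higher and 1 lower than in the low-mitochondrial barcodes, beside 10.4% and 12.3% of all genes, and 2 of 18 were higher at equal depth, beside 3.76%. With all UMIs 4 were higher and 1 lower than in the near-empty barcodes, beside 4.66% and 12.2% of all genes. Thinned, none was higher and 5 of 22 were lower, beside 2.81% and 5.12%. Cat, the peroxisomal catalase, had 239 CPM in the mitochondria-rich, 111 in the low-mitochondrial and 468 in the near-empty barcodes, and was 2.16-fold (1.79 to 2.61) higher than in the low-mitochondrial barcodes with all UMIs and 1.59-fold (1.07 to 2.38) at equal depth. The metallothionein Mt1 had 1783 CPM in both the mitochondria-rich and the low-mitochondrial barcodes and 1057 in the near-empty ones. One barcode held 437 of its 1408 UMIs, and the ratios were 1.35 (1.12 to 1.63) to the low-mitochondrial barcodes at equal depth and 1.03 (0.893 to 1.17) to the near-empty ones, thinned.

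Tubule injury genes were mixed. Of 19 genes 5 were higher and 6 lower than in the low-mitochondrial barcodes, beside 10.4% and 12.3% of all genes. Of 18 genes 6 were higher and 2 lower than in the near-empty ones, beside 4.66% and 12.2%. Thinned, none of 17 was called. The summed ratio to the near-empty barcodes went from 1.99 (1.92 to 2.06) to 0.85 (0.788 to 0.916) thinned. Havcr1, the injury marker KIM-1, had 49.4, 26.3 and 79.4 CPM in the 3 pools, with a ratio of 1.88 (1.23 to 2.82) to the low-mitochondrial barcodes and 1.14 (0.505 to 2.59) at equal depth. Spp1, osteopontin, had 5755, 4350 and 2257 CPM. One barcode held 1720 of its 4544 UMIs, and the ratio to the near-empty barcodes was 2.55 with all UMIs and 0.81 (0.73 to 0.897) thinned.

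Among the genes farthest from 1, several were genes of single barcodes. In 4 of the 12 genes farthest above the low-mitochondrial barcodes, 1 barcode held at least 50% of the UMIs. Fst, the activin-binding protein follistatin, had 118 CPM against 4.2, with 70 of its 93 UMIs in 1 barcode of 37855 UMIs. Ccl20, a chemokine, had 23 of its 24 UMIs in 1 barcode, and Lypd2 14 of 25. Itih5, an inter-alpha-trypsin inhibitor heavy chain, differed from these: its 54 UMIs lay in 41 barcodes, and it had 68.4 CPM against 13 in the low-mitochondrial and 28.3 in the near-empty barcodes (5.27, 3.37 to 8.35, and 2.42, 1.59 to 3.71). Ptger3, a prostaglandin receptor, stood 8.87-fold above the near-empty barcodes (3.86 to 23.8), with 33 UMIs in 18 barcodes.

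On the low side were genes of endothelium and leukocytes, among others. Sox18, an endothelial transcription factor, had 8 UMIs against 441 in the low-mitochondrial barcodes (0.0602, 0.0258 to 0.12), and Cd52, a leukocyte surface protein, 15 against 700 (0.0711, 0.0396 to 0.118). Cd52 kept a ratio of 0.286 (0.121 to 0.604) at equal depth. Capn5, a calpain, had 2 UMIs, against 75 in the low-mitochondrial and 44 in the near-empty barcodes, and its ratio to the latter was 0.0855 (0.01 to 0.328). For S100a9, 436 of the 442 low-mitochondrial UMIs lay in 1 barcode.

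Barcodes chosen by proximal tubule markers were also compared among themselves. At least 3 proximal tubule UMIs, with none of endothelial, lymphatic, podocyte, collecting duct or leukocyte markers, were found in 445 mitochondria-rich (26%) and 399 low-mitochondrial barcodes (23.1%). Between these, 206 of 4545 genes were higher (4.53%) and 137 lower (3.01%) in the mitochondria-rich barcodes, so 60.1% of calls were higher. The chosen barcodes were not thinned and still differed in depth. They held medians of 358 non-mitochondrial UMIs in the mitochondria-rich and 576 in the low-mitochondrial group. Malat1 kept a ratio of 0.629 to the low-mitochondrial barcodes and Cat one of 2.04. Ribosomal proteins gave 2 higher and 1 lower of 78, with a summed ratio of 1.06, and all 4 measured pericyte and smooth muscle markers were higher. The choice did not leave out pericyte, fibroblast, thick ascending limb or red cell markers: 2 of 5 thick ascending limb and 2 of 3 fibroblast markers were also higher, and 4 of 4 red cell markers lower, where 1 low-mitochondrial barcode held 1503 of the 1524 red cell UMIs before this choice. Neat1 was at 0.858 (0.798 to 0.921) and Kcnq1ot1 at 0.691 (0.519 to 0.912). Gene length moved with these differences: with all barcodes, genes of at most 1000 bases had a median log2 ratio of -0.31 to the low-mitochondrial barcodes and those over 8000 bases 0.13, and under the proximal tubule condition the shortest genes had 0.21 and the longest -0.11. Its part in the results was not tested.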

How the data were processed

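The deposited files were 1 unfiltered matrix of raw UMI counts for each of 2 libraries (Chromium 3' kit v3.1), listing 32285 genes. The submitters' processing notes name Cell Ranger 6.0.1 and mm10, while the file headers mark Cell Ranger 4. The cell calls of the authors were not used here, and doublets were not called.

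From these counts, rows sharing a symbol (78) were added, and UMIs were summed over the barcodes of each pool. Ratios are of non-mitochondrial CPM with exact conditional binomial 95% intervals, and medians of log2 ratios add 0.5 UMI. With 1 library a treatment there was no test. Thinning used 1 random draw and was not applied to the near-empty pool. Calculations used Python 3.11.15, numpy 2.4.6, scipy 1.17.1 and pandas 2.3.3, and the ratios and calls were tested on simulated data. Sequences were read from the GENCODE vM21 transcripts.

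The rule for named genes took the 12 highest and 12 lowest genes in each comparison by the interval bound nearest 1, up to 4 members of each of 25 gene lists and up to 3 of each of 16 marker lists, and some fixed genes. The members, lists and alternatives were chosen with earlier results of these data known. Alternatives changed the mitochondrial limit, depth limit, thinning, denominator, near-empty range and UMI minimum, or kept barcodes with proximal tubule markers and none of endothelial, podocyte, collecting duct or leukocyte markers.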

Additional observations from a re-analysis of the deposited data

How the results depend on the processing

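Without replicates, the limits are those of 1 library: intervals cover counting error, and mice, pooling and library cannot be told apart. The mitochondria-rich barcodes held few non-mitochondrial UMIs, so genes under 20 UMIs over both pools are not described, and an equal-depth difference in a gene of few UMIs was often not detectable. No paired analysis was possible because each treatment had 1 library. Of the main results with an alternative, 180 values stayed on their side of the 1.5-fold limit or within 1.5 times of their count. Of the rest, 34 counts or shares moved further, 21 ratios came inside the limit, 12 passed it and 1 crossed 1. Those that did not stay are given below, grouped by alternative, together with ratios of other results that crossed 1. The cause was not tested unless fewer barcodes, UMIs or genes by construction are named.

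The number of mitochondria-rich barcodes was 2578 above 10%, 776 above 50%, 8076 from 300 UMIs, 252 from 1000 UMIs and 362 from 500 non-mitochondrial UMIs. With the limit at 10%, 1976 genes were higher than in the low-mitochondrial barcodes, the ratio of Mt2 was 4.55 and that of Myh11 0.619, and against near-empty barcodes the summed ratios were 1.24 for thick ascending limb, 0.734 for macrophage and 1.59 for nuclear long non-coding RNA. With barcodes above 20% set against those of at most 10%, 1887 genes were higher and Mt2 was at 2.38. Above 30% the proximal tubule ratio to near-empty barcodes was 0.667. Above 50% (fewer barcodes), 938 genes were lower than in the low-mitochondrial barcodes, pericyte and smooth muscle markers were at 1.1, tubule injury genes at 0.531, Mt1 at 0.661 and Spp1 at 0.581. Against near-empty barcodes, 250 were then higher and 696 lower, proximal tubule markers were at 0.685 and collecting duct principal markers at 1.07.

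From 300 UMIs, 296 genes were higher and 628 lower than in near-empty barcodes, with proximal tubule at 0.8, thick ascending limb at 1.19 and macrophage at 0.768. From 1000 UMIs, 903 genes were higher, blood endothelial markers were at 0.442 and ribosomal proteins at 1.71. From 500 non-mitochondrial UMIs, proximal tubule markers were at 1.43 against low-mitochondrial and blood endothelial ones at 0.483 against near-empty barcodes. With gene minimums of 100 UMIs (fewer genes), 744 were higher than in the low-mitochondrial, and 267 higher and 859 lower than in the near-empty barcodes.

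At equal depth (fewer UMIs), 192 genes were higher and 177 lower than in the low-mitochondrial barcodes. The summed ratios were 1.06 for proximal tubule, 1.42 for collecting duct principal, 1.23 for podocyte, 0.94 for blood endothelial, 2.08 for pericyte and smooth muscle, 0.655 for nuclear long non-coding RNA and 0.787 for ribosomal proteins, and Neat1 was at 0.946, Pck1 at 0.874, Podxl at 1.01, Rgs5 at 1.71 and Slc5a2 at 0.675. With the mitochondria-rich side alone thinned, against near-empty barcodes 289 were higher and 527 lower, with proximal tubule at 0.774, thick ascending limb at 1.08, macrophage at 0.669, complex IV at 0.923, nuclear long non-coding RNA at 1.53, tubule injury at 0.85, Cox8a at 0.984, Mt2 at 0.925 and Spp1 at 0.81. Of barcodes thinned to 100 UMIs, 37.5% held 2 proximal tubule UMIs, 2.91% thick ascending limb and 2.24% blood endothelial UMIs, and without thinning 81.4%, 11.9% and 15%.

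With barcodes chosen by proximal tubule markers (fewer barcodes), 206 genes were higher and 137 lower than in the low-mitochondrial barcodes. Pericyte and smooth muscle markers were at 5.39, gluconeogenesis at 0.885, carriers at 0.906, nuclear long non-coding RNA at 0.647, ribosomal proteins at 1.06, immediate early genes at 1.01, interferon genes at 1.63, Klf2 at 1.24, Neat1 at 0.858, Pck1 at 0.689, Plat at 1.37, Rgs5 at 9.75, Rpl39 at 1.31 and Rps29 at 1.1. Against near-empty barcodes, 335 were higher and 586 lower, with thick ascending limb at 1.31, complex IV at 0.931, nuclear long non-coding RNA at 1.89, tubule injury at 0.604, Cox8a at 0.81, Havcr1 at 1.41, Mt1 at 0.765, Mt2 at 0.879, Ndufa1 at 0.743, Rps29 at 0.892 and Spp1 at 0.55.

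Against near-empty barcodes with Malat1 and ribosomal RNA models out of the total, proximal tubule markers were at 0.712 and nuclear long non-coding RNA at 1.54. Centred on the median gene, 842 genes were higher and 800 lower, with the same lists at 0.729 and 1.58. With near-empty barcodes of 1 to 50 UMIs (fewer UMIs), 250 were higher and 615 lower, proximal tubule was at 0.741 and blood endothelial at 0.6, and with those above 100 and up to 300 UMIs proximal tubule was at 0.683. Without the 10 deepest barcodes, an alternative chosen after seeing the data, collecting duct principal markers were at 1.66, tubule injury at 0.655 and Fxyd4 at 1.03 against low-mitochondrial barcodes, and proximal tubule at 0.769, thick ascending limb at 1.42, nuclear long non-coding RNA at 1.6, tubule injury at 0.859, Cox8a at 0.956 and Spp1 at 0.81 against near-empty ones.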
